A study of Mus musculus with 4 samples.

Results

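The S100 genes encode small calcium-binding proteins, and 10 of them (S100a1, S100a4, S100a6, S100a8, S100a9, S100a10, S100a11, S100a13, S100a14 and S100a16) were followed across cell types and culture conditions of mouse mammary organoids. Members were taken by gene symbol, by a rule that uses no measured value although earlier results of these data were known, and are 10 of the 32285 genes listed in both gene expression matrices. The organoids came from the lymph node-free fat pads of virgin mice aged 8 to 9 weeks, and single-cell RNA sequencing was run on 4 cultures. COL1 is a collagen culture, STIFF a stiff one, MATR a Matrigel (basement membrane extract) culture and SOFT a soft one, and the labels name no further treatment, strain or genotype. Cells of 2 cultures at a time carried antibody tags (hashtags) and shared 1 droplet channel, COL1 with STIFF and MATR with SOFT.

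S100 proteins bind calcium through paired EF-hand loops, mostly act as dimers, and change shape on binding so that they grip partner proteins. Inside cells they touch the cytoskeleton, annexins and membrane repair, and some are released and act on receptors of immune cells. In the mammary gland the epithelium is a bilayer of contractile basal cells around luminal cells, and luminal cells divide into a hormone receptor-positive (HR-positive) kind and a receptor-negative, milk-lineage kind (HR-negative). Fibroblasts and macrophages lie around the ducts. S100a8 and S100a9 form calprotectin, a heterodimer known from neutrophils and inflamed epithelium. S100a4 is known from macrophages, fibroblasts and motile cells. S100a10 pairs with annexin A2.

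All 10 genes lie on mouse chromosome 3. In the RefSeq annotation of GRCm38.p6, the build also called mm10, they run from base 90511034 to base 93564645 in the order S100a1, S100a13, S100a14, S100a16, S100a4, S100a6, S100a8, S100a9, S100a11 and S100a10. A gap of 2824774 bases parts S100a9 from S100a11. S100a1 (chr3:90511034-90514330) and S100a13 (chr3:90514233-90524581) lie on opposite strands and overlap by 98 bases, and their windows around the start share 204 bases. S100a4 (chr3:90603770-90606045) and S100a6 (chr3:90612894-90614414) are 6848 bases apart on the same strand, with S100a5, which is not a member, between them. S100a8 (chr3:90669071-90670034, plus strand) and S100a9 (chr3:90692630-90695721, minus strand) are 22595 bases apart.

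Windows from 250 bases before to 50 after the annotated start are shown for S100a4 and S100a6, neighbours among the members, with different leading classes. Windows are also shown for S100a8 and S100a9, of which only the first was read in more than a few cells. The last is that of S100a11, whose level varied with that of S100a6. The windows are RefSeq sequences of GRCm38.p6, each 5′ to 3′ on the strand of its gene: chr3:90603520-90603819 (plus), chr3:90612644-90612943 (plus), chr3:90668821-90669120 (plus), chr3:90695672-90695971 (minus) and chr3:93520246-93520545 (plus). Capitals mark matches on either strand to a TATA box (TATAAA), an AP-1 site (TGANTCA), a C/EBP half-site pair (TTNNGNAA), a CCAAT box (CCAAT, or ATTGG read on the other strand) and a GC box (GGGCGG), and no 2 of the marked matches overlap.
S100a4: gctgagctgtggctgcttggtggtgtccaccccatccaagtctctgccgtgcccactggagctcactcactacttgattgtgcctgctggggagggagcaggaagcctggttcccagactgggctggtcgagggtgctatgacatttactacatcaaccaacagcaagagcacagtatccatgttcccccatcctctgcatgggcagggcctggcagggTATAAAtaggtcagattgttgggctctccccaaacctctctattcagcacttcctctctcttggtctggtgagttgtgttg
S100a6: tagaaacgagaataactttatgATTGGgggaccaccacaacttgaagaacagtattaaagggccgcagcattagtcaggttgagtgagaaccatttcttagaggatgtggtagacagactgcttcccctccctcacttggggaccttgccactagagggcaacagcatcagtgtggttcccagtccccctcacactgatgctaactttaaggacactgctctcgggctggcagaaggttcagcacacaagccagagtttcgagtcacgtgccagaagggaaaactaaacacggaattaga
S100a8: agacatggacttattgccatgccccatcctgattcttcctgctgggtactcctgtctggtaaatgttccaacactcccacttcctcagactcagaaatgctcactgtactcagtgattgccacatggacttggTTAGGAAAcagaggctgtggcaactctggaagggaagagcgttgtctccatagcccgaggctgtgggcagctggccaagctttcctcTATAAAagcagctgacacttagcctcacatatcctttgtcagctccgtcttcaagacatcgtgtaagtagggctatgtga
S100a9: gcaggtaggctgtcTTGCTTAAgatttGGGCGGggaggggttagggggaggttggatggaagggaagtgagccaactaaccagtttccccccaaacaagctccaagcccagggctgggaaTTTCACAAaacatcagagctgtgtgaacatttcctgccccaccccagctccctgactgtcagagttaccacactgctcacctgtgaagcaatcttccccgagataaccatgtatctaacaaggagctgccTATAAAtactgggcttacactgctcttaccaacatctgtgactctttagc
S100a11: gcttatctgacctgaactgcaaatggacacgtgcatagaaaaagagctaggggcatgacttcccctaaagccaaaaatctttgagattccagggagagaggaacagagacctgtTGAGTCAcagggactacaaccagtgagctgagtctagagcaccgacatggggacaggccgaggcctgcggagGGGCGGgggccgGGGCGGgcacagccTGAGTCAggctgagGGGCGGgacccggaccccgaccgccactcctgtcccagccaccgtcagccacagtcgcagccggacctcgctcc
The S100a4 and S100a8 windows hold a TATA box whose first base lies 31 and 30 bases before the start. In the S100a9 window the TATA box begins at the annotated start itself. S100a8 has 1 C/EBP match and S100a9 has 2. S100a11 has 2 AP-1 matches and 3 GC boxes, and S100a6 has a CCAAT box alone. Of all 32851 RefSeq mouse windows of this length, 13.6% held the TATA box, 7.81% the AP-1 site, 40.7% the C/EBP pair, 37.4% CCAAT and 35.7% the GC box. A match is a run of letters and says nothing of binding. Of the 10 genes, 8 had a window in the table, and S100a10 and S100a14 had none.

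The pools held 10615 and 8767 barcodes with 133608252 and 131036333 unique molecule counts (UMIs, read from the 3′ end of each RNA). After filtering, 8288 cells had 1 tag. COL1 had 1563 cells and STIFF 2451, and MATR had 2333 and SOFT 1941, with medians of 11353, 16843, 14722 and 15233 UMIs per cell. Each condition was 1 culture, so no difference could be tested and every interval below is a 95% interval for counting error only. COL1 and MATR, and likewise STIFF and SOFT, came from different channels, so condition and channel cannot be told apart there. The labels do not say which tag marked which culture. The names given to the matrices were used for this pairing. With tags swapped in a pool, its COL1 over STIFF or MATR over SOFT values would change sign on the log scale. The levels of its 2 conditions would be exchanged, so COL1 over MATR and STIFF over SOFT would change too. Barcodes left without a tag made up 54.9% of those kept from COL1 with STIFF and 42.7% of those from MATR with SOFT, and the pools had 19 barcodes in common. Cells were clustered without the S100 genes, and clusters were named from marker lists. The classes compared are basal-like (678 cells, led by Acta2, Tagln and Krt5), HR-positive luminal-like (clusters 3, 4 and 5), HR-negative luminal-like (1197 cells, with Ltf, Saa1 and Csn3), fibroblast-like (502 cells, which also carried pericyte markers) and immune-like (807 cells, macrophage genes Lyz2, C1qa and Apoe), and the suffix is dropped below. Clusters 1, 8 and 9 stayed unnamed, cluster 1 (994 cells) because it carried markers of both luminal kinds. Shares by class below are over tagged cells, and tag loss differed by class. In COL1 with STIFF 66.2% of basal, 29.3% of HR-positive, 75.3% of HR-negative, 41.3% of fibroblast and 5.20% of immune barcodes lacked a tag. In MATR with SOFT these were 65.3%, 30.2%, 68.7%, 39.8% and 1.52%. The part of this loss in the shares was not tested.

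Together the 10 genes gave 0.969% of all UMIs in COL1 and 0.99% in STIFF, and 1.18% in MATR and 1.10% in SOFT. Their summed share was highest in HR-positive cells, where it was 1.71% in COL1 and 1.62% in STIFF, and 1.95% in MATR and 1.84% in SOFT. It was lowest in HR-negative cells, at 0.387%, 0.445%, 0.304% and 0.451% in the same order. S100a6 made up most of the sum over all tagged cells and in HR-positive cells, but not in HR-negative or basal cells. The classes are therefore described gene by gene. Levels below are counts summed over the cells of a class in a condition and scaled to a total of 1e+06 UMIs (CPM).

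S100a6, the calcyclin gene, was highest in HR-positive cells in each condition. Its level there was 11503 CPM in COL1 and 10884 in STIFF, and 13206 in MATR and 12499 in SOFT, and 57.1%, 52.3%, 71.6% and 72.3% of its UMIs came from these cells. Fibroblasts came next with 6314, 7130, 7435 and 5798 CPM in that order, so HR-positive cells were 1.53-fold (STIFF) to 2.16-fold (SOFT) above them. HR-negative cells, the sister luminal kind, had 1461 CPM in COL1 and 1865 in STIFF, and 1025 in MATR and 1936 in SOFT, which is 5.83-fold (STIFF) to 12.9-fold (MATR) under HR-positive cells where HR-negative was the lowest class, and in SOFT the lowest class was immune (1712 CPM). Among HR-positive clusters, cluster 5, which also carried Reg3b and Calcb, was highest in all 4 conditions with 13559, 14962, 16827 and 14354 CPM. The unnamed cluster 1, with markers of both luminal kinds, lay between them at 5174 to 6623 CPM.

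S100a6 was uneven within basal cells. Its basal level was 1599 CPM in COL1 and 2707 in STIFF, and 2158 in MATR and 3537 in SOFT, and the top 5% of basal cells held 48.0%, 31.7%, 38.6% and 26.6% of these UMIs. In COL1, 14 of 230 basal cells were enough to reach 50% of its S100a6 UMIs. The summed level of the luminal markers Krt8, Krt18, Krt19 and Epcam in basal cells was 2841, 4813, 4252 and 5110 CPM in the same order of conditions. Its part in the S100a6 values was not tested.

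S100a11, an annexin-binding member that has been tied to membrane repair and keratinocyte growth arrest, followed the same leading class. HR-positive cells had 2987 CPM in COL1 and 3006 in STIFF, and 3358 in MATR and 3115 in SOFT, 1.63-fold (SOFT) to 1.96-fold (COL1) above the next class. Basal cells (1500, 1761, 1726 and 1910 CPM) and fibroblasts (1525, 1732, 1608 and 1546 CPM) came next, and their intervals overlapped in COL1 and STIFF. S100a16 was also highest in HR-positive cells, with 366, 369, 475 and 379 CPM, but its next class was close: in STIFF fibroblasts had 355 CPM and the intervals overlapped. Immune cells were lowest for S100a16 in all 4 conditions, at 64.5, 138, 94.3 and 43.9 CPM.

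S100a14, an epithelial member of the family, separated the 2 luminal kinds in all 4 conditions. HR-positive cells had 647 CPM in COL1 (628 to 666) and 366 in STIFF (356 to 376), and 699 in MATR (687 to 712) and 665 in SOFT (652 to 679). HR-negative cells had 25.9, 32.6, 26.8 and 46.8 CPM. Basal cells lay between, with 144, 187, 164 and 243 CPM. In HR-positive cells 92.3% of cells in COL1 and 84.7% in STIFF, and 94.6% in MATR and 96.9% in SOFT had an S100a14 UMI, and after thinning each cell to 2000 UMIs these shares were 64.3%, 46.8%, 65.6% and 67.4%. Fibroblasts, which should lack the gene, had shares of 19.4%, 30.9%, 19.8% and 26.8% at median depths of 14101, 20289, 17281 and 25344 UMIs, against 10363, 12272, 12770 and 12970 UMIs in HR-positive cells. The S100a14 level of fibroblasts was 41.8 to 60.3 CPM, and the HR-negative levels, 25.9 to 46.8 CPM, are not read here as expression, so no fold is given over them.

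S100a10 was the member led by basal cells. Its basal level was 1521 CPM in COL1 and 1538 in STIFF, and 1725 in MATR and 1513 in SOFT, with HR-positive cells next at 1009, 883, 1015 and 1174 CPM. The basal excess was 1.51-fold (COL1), 1.74-fold (STIFF), 1.70-fold (MATR) and 1.29-fold (SOFT). HR-negative cells had 560, 549, 343 and 642 CPM, and fibroblasts 503, 598, 501 and 464 CPM. Within HR-positive cells cluster 5 again stood highest, at 1268, 1315, 1548 and 1430 CPM. Anxa2, which encodes the partner of S100a10, differed by less than 1.5-fold in each comparison and class described here; in HR-positive cells it had 1658 CPM in COL1 and 1633 in STIFF, and 2032 in MATR and 1666 in SOFT.

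S100a1, known best from heart and muscle, had nearly the same level in both luminal kinds. HR-positive cells had 420, 433, 461 and 383 CPM and HR-negative cells 406, 391, 419 and 377 CPM in COL1, STIFF, MATR and SOFT. The intervals of the pair overlapped in COL1 and SOFT. Fibroblasts were lowest in each condition, with 144, 190, 157 and 142 CPM. S100a13, which helps release FGF1 and interleukin 1 alpha, was the most even member: its highest class was 1.61-fold (COL1) to 1.82-fold (MATR) above its lowest. Fibroblasts (209, 233, 235 and 211 CPM) and HR-positive cells (203, 222, 248 and 191 CPM) led with overlapping intervals in all 4 conditions. Although S100a1 and S100a13 overlap on the chromosome, their levels over the 20 class and condition profiles had a Pearson r of 0.08, given as a description, since profiles of a condition share a culture and a library.

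**Figure D1:**
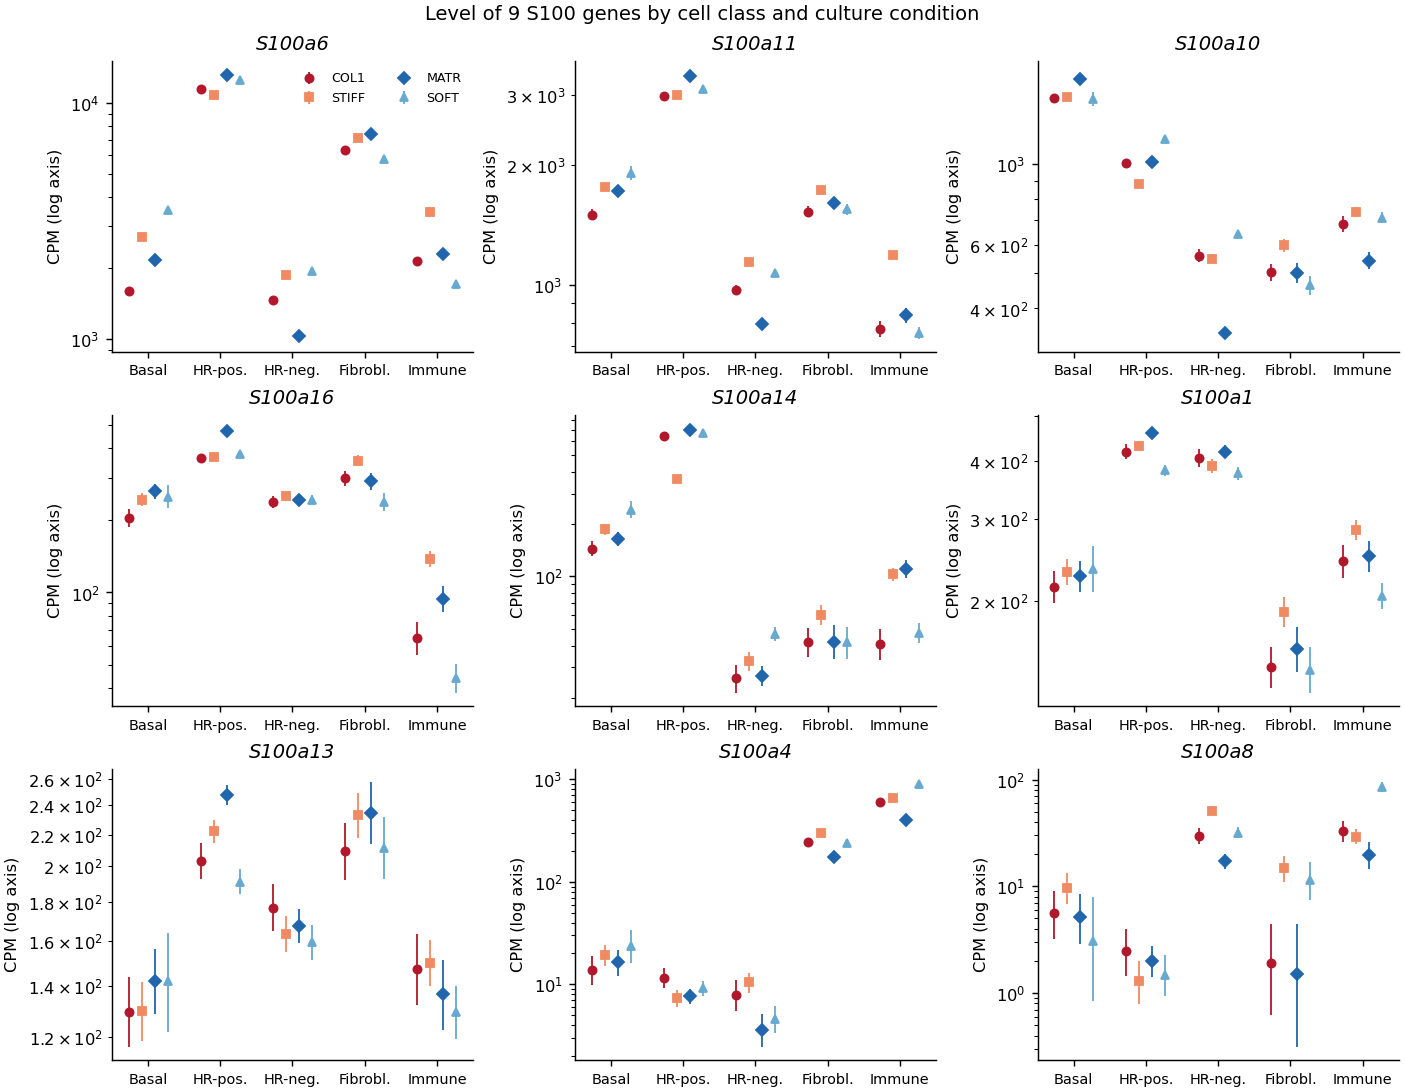
Level of 9 S100 genes (S100a9 is left out) in CPM on log axes, by cell class, with COL1, STIFF, MATR and SOFT from left to right within a class; points are summed counts of 1 culture each and bars are exact Poisson 95% intervals for counting error. S100a6 and S100a14 stand highest in HR-positive cells, S100a10 in basal cells and S100a4 in immune cells in all 4 conditions, and S100a8 in immune or HR-negative cells.

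S100a4 was the member of the stroma. Immune cells had 596 CPM in COL1 (566 to 627) and 663 in STIFF (642 to 685), and 398 in MATR (374 to 423) and 905 in SOFT (878 to 933). Fibroblasts had 246, 302, 176 and 240 CPM, so immune cells were 2.20-fold (STIFF) to 3.77-fold (SOFT) above them. Among tagged cells, immune cells held 62.7% of S100a4 UMIs in COL1 and 70.4% in STIFF, and 63.1% in MATR and 85.1% in SOFT. Fibroblasts, which lost more tags than immune cells, held 27.7%, 22.0%, 21.3% and 10.3%. An S100a4 UMI was present in 87.1%, 88.3%, 65.2% and 92.6% of immune cells. HR-positive cells, which should lack it, had one in 12.4%, 8.71%, 9.05% and 9.97% of cells, at median depths of 10363 to 12970 UMIs against 13191 to 17888 UMIs in immune cells. Levels in HR-positive and HR-negative cells were 3.62 to 11.6 CPM and are read as background, and basal cells had 13.7, 19.2, 16.4 and 23.9 CPM.

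Among the 5 classes S100a8 was highest in immune or HR-negative cells. Immune cells had 32.9 CPM in COL1 and 29.3 in STIFF, and 19.7 in MATR and 85.5 in SOFT. HR-negative cells had 29.8, 51.0, 17.2 and 31.8 CPM. The intervals of these 2 classes overlapped in COL1 and MATR, HR-negative cells were 1.74-fold above immune cells in STIFF, and immune cells were 2.69-fold above HR-negative cells in SOFT. HR-positive cells had 1.31 to 2.49 CPM, and fibroblasts had 1.92, 14.7, 1.52 and 11.5 CPM. Of the S100a8 UMIs in tagged cells, unnamed and endothelial clusters held 29.2%, 28.3%, 30% and 10.5%. Immune cells held 22.3%, 16.8%, 14.2% and 48.2%. HR-negative cells, most of whose barcodes lacked a tag, held 37.9%, 43.0%, 40.8% and 35.3%. The unnamed cluster 9, with HR-negative, basal and cell cycle genes and at most 57 cells in a condition, had 49.2, 27.8, 64.3 and 12.1 CPM. The share of cells with an S100a8 UMI was 20.4%, 46.1%, 21.5% and 29.5% in HR-negative cells and 2.45%, 1.67%, 1.20% and 2.15% in HR-positive cells, at median depths of 13291 to 27637 UMIs against 10363 to 12970 UMIs. After thinning to 2000 UMIs the HR-negative shares were 5.04%, 6.20%, 3.56% and 3.86% and the HR-positive shares at most 0.242%.

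The S100a8 signal of HR-negative cells sat in few cells. The 5% of HR-negative cells with most S100a8 held 66.2% of its UMIs in COL1 and 54.2% in STIFF, and 59.2% in MATR and 57.7% in SOFT, and the richest single cell had 20, 94, 14 and 49 UMIs. Immune cells were less uneven, with 31.3%, 45.3%, 35.3% and 35.9% in the top 5% and at most 5, 13, 4 and 19 UMIs per cell. Most S100a8-bearing immune cells in COL1 (90.4%), STIFF (96.0%) and SOFT (94.8%) also had an S100a4 UMI, and 57.9% did in MATR. Among immune cells without S100a8 these shares were 85.3%, 85%, 90.2% and, in MATR, 67.5%.

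S100a9, the calprotectin partner of S100a8, was almost absent. Over all kept barcodes it had 4 UMIs in 2 barcodes of the COL1 and STIFF pool and 1 UMI in 1 barcode of the MATR and SOFT pool, where S100a8 had 2807 UMIs in 1139 barcodes and 1901 UMIs in 785 barcodes. The upper limits of its level were 0.0774 CPM and 0.0430 CPM. Among tagged cells COL1 had 3 UMIs and STIFF 1, all in unnamed clusters, so each of the 5 classes had 0 in each condition. A count of 0 allows up to 3 counts, which is 0.168 CPM in HR-positive cells of MATR and 2.31 CPM in basal cells of SOFT, the deepest and shallowest profiles. The neutrophil markers Ly6g, Retnlg and Ngp were at 0 in all 4 conditions as well. Of the 10 neutrophil markers, 4 in COL1 and 3 in STIFF, and 3 in MATR and 5 in SOFT were above 0 in immune cells, with a summed level of 205, 42.6, 74.9 and 242 CPM, most of it the matrix metalloprotease gene Mmp9 (176, 30, 50.6 and 174 CPM).

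**Figure D2:**
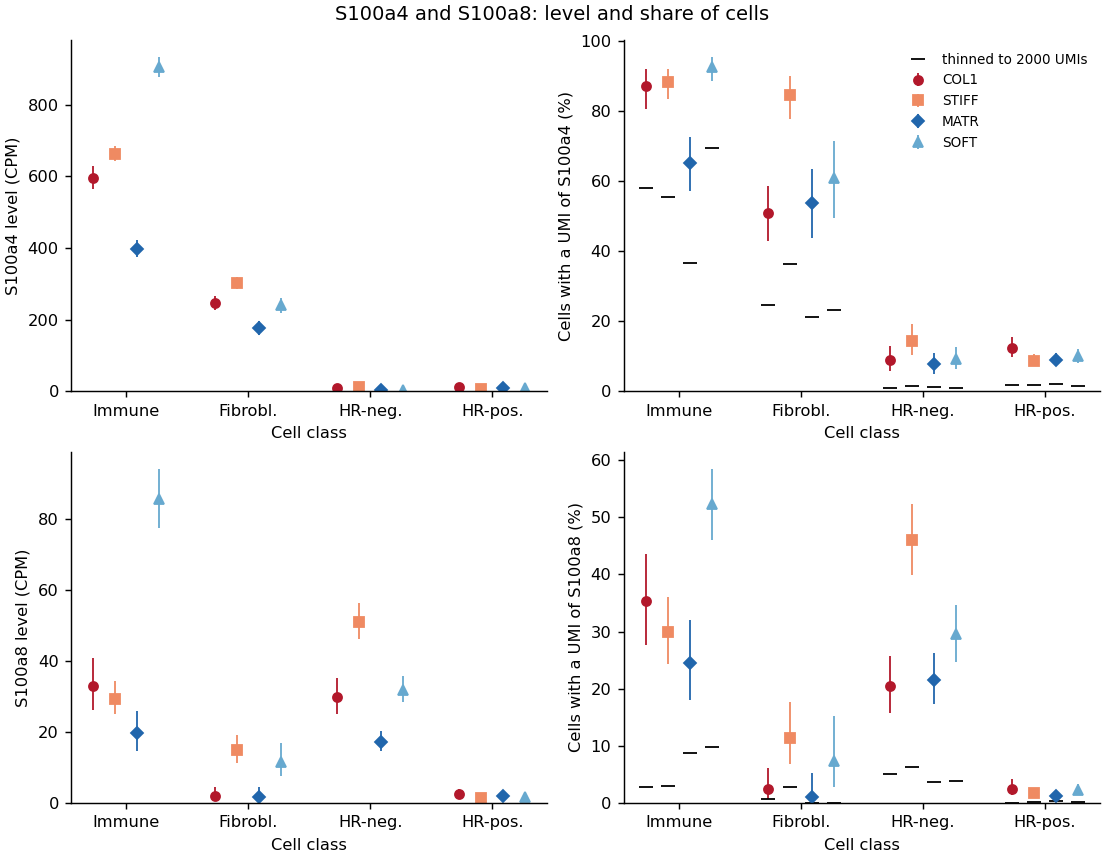
Level in CPM (left panels) and percent of cells with at least 1 UMI (right panels) of S100a4 (top) and S100a8 (bottom) in immune, fibroblast, HR-negative and HR-positive cells, with COL1, STIFF, MATR and SOFT from left to right; bars are exact 95% intervals for counting error and black dashes the share after thinning to 2000 UMIs per cell. Over all immune cells S100a4 is highest in SOFT (905 CPM) and lowest in MATR (398 CPM), and S100a8 is highest in immune cells of SOFT (85.5 CPM) and in HR-negative cells of STIFF (51.0 CPM).

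The conditions were then compared within classes, taking a gene with at least 100 UMIs over both conditions as measured and a ratio of at least 1.5-fold in either direction as called. In COL1 over MATR, 5 of 40 measured pairs of an S100 gene and a class were called (4 higher in COL1 and 1 lower), where the same rule called 6.27% of all gene and class pairs. In STIFF over SOFT, 8 of 42 were called (6 higher in STIFF, 2 lower) against 10.3% of all pairs. Trimmed mean of M-values (TMM) scaling, which removes a shift shared by most genes, gave 5 higher and 3 lower against 9.85% of all pairs. In COL1 over STIFF, 8 of 42 were called (2 higher in COL1, 6 lower) against 7.54%. In MATR over SOFT, 9 of 40 were called (2 higher in MATR, 7 lower) against 8.03%. These comparisons share conditions, so their calls are not separate evidence. Fibroblasts gave no call in any of them, where 7.15% of all genes were called in COL1 over MATR, 8.0% in STIFF over SOFT, 9.45% for COL1 over STIFF and 8.18% in MATR over SOFT. Over all tagged cells together, 2 of 9 measured genes were called in COL1 over MATR, 1 for STIFF over SOFT, 0 for COL1 over STIFF and 2 in MATR over SOFT, beside 11%, 9.57%, 6.72% and 9.17% of all genes. The median log2 ratio of the 9 genes over all tagged cells was -0.23, -0.18, -0.05 and 0.13 in the same order, against 0.04, 0.04, -0.03 and -0.02 for all genes. S100a1 and S100a13 were called in no class.

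**Figure D3:**
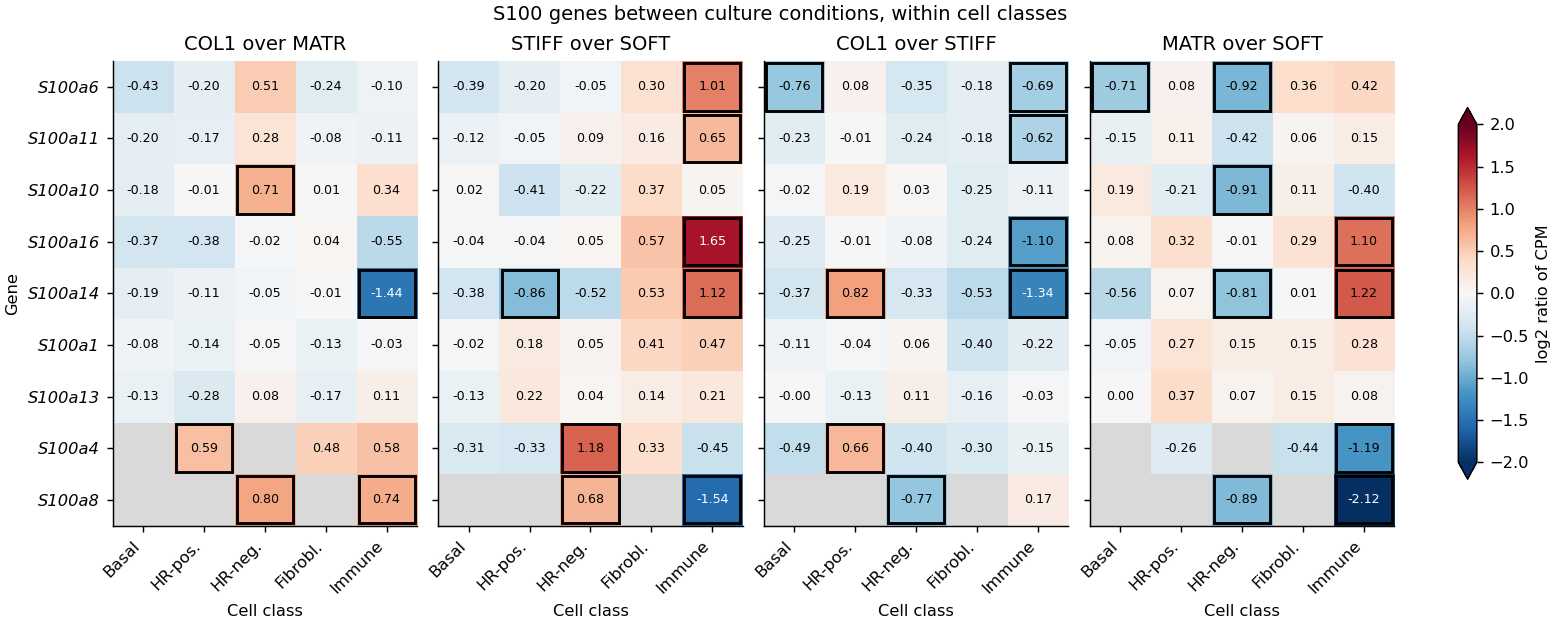
Log2 ratio of CPM for 9 S100 genes (rows) in 5 classes (columns) for COL1 over MATR, STIFF over SOFT, COL1 over STIFF and MATR over SOFT; black frames mark ratios of at least 1.5-fold in either direction and grey fields pairs under 100 UMIs. S100a14 in HR-positive cells (-0.86 for STIFF over SOFT and 0.82 for COL1 over STIFF) and S100a8 in immune cells (-2.12 for MATR over SOFT) are framed, and the fibroblast columns hold no frame.

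S100a14 was lower in HR-positive cells of STIFF than in those of the other 3 cultures. It was 1.82-fold lower in STIFF than in SOFT (366 against 665 CPM, interval 1.76 to 1.88) and 1.77-fold higher in COL1 than in STIFF (647 against 366 CPM, interval 1.70 to 1.84), while COL1 and MATR, and MATR and SOFT, differed by less than 1.5-fold. The rule called 9.39% of all genes in HR-positive cells for STIFF over SOFT and 5.95% for COL1 over STIFF, beside 6.86% for COL1 over MATR and 6.59% for MATR over SOFT. STIFF was lowest in each HR-positive cluster too: cluster 3 had 465 CPM in COL1 and 311 in STIFF, and 632 in MATR and 543 in SOFT, cluster 4 had 979, 622, 836 and 802 CPM, and cluster 5 had 609, 476, 783 and 629 CPM. Within clusters STIFF was 1.74-fold, 1.29-fold and 1.32-fold lower than SOFT, and COL1 was 1.49-fold, 1.57-fold and 1.28-fold higher than STIFF. The clusters were unevenly filled, since cluster 4, the one with most S100a14, held 22 of 1079 HR-positive cells in STIFF against 159 of 531 in COL1 and 352 of 1023 in SOFT, and 752 STIFF cells were in cluster 3. The part of this mixture in the class value was not tested. In the unnamed cluster 1 the level was 306, 175, 342 and 311 CPM, again lowest in STIFF. With tags ignored, HR-positive barcodes had 439 CPM in the COL1 and STIFF pool and 703 CPM in the MATR and SOFT pool.

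**Figure D4:**
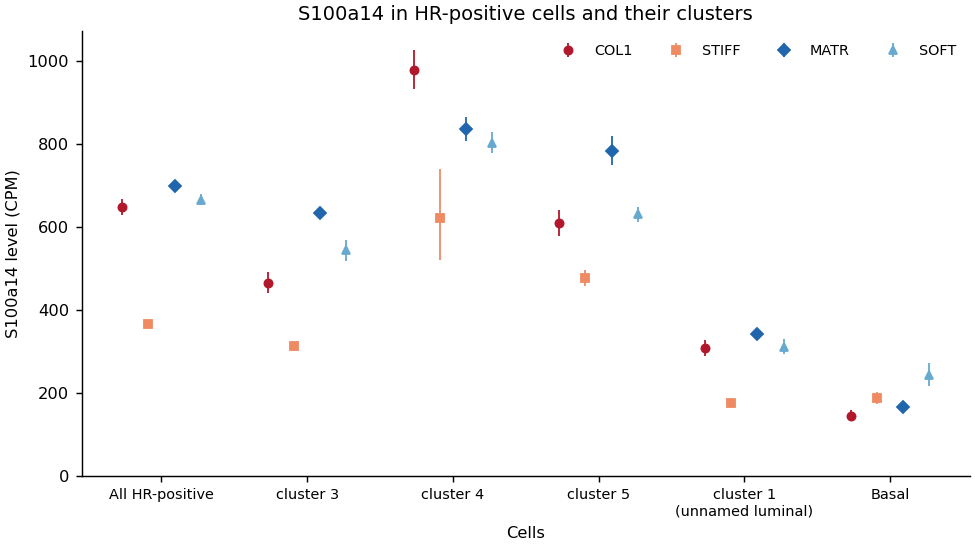
S100a14 level in CPM in all HR-positive cells, in their clusters 3, 4 and 5, in the unnamed luminal cluster 1 and in basal cells, with COL1, STIFF, MATR and SOFT from left to right and exact Poisson 95% intervals. STIFF is the lowest of the 4 conditions in the HR-positive class (366 CPM), in each of its clusters (311, 622 and 476 CPM) and in cluster 1 (175 CPM), but not in basal cells (187 CPM).

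S100a4 was lowest in MATR. Over all tagged cells it had 98.5 CPM in COL1 and 97.1 in STIFF, and 37.2 in MATR and 136 in SOFT. It was 2.64-fold higher in COL1 than in MATR (interval 2.48 to 2.82) and 3.65-fold lower in MATR than in SOFT (3.45 to 3.87). Immune cells, its main source, made up 9.40% of tagged cells in COL1 and 10.1% in STIFF, and 6.64% in MATR and 13.3% in SOFT. The value over all tagged cells therefore also carries their number. Within immune cells S100a4 was 2.28-fold lower in MATR than in SOFT (398 against 905 CPM, interval 2.13 to 2.44), where 11.1% of all genes were called. COL1 over MATR in immune cells (596 against 398 CPM) lay just under the 1.5-fold limit. After thinning, 57.9% of immune cells in COL1 and 55.5% in STIFF, and 36.7% in MATR and 69.4% in SOFT had an S100a4 UMI, in the order of the levels except for COL1 and STIFF. S100a4 was also called in HR-positive cells (1.51-fold higher in COL1 than in MATR, 1.58-fold higher in COL1 than in STIFF) and in HR-negative cells (2.27-fold higher in STIFF than in SOFT), at levels of 3.62 to 11.6 CPM that are background here.

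S100a8 took opposite directions in its 2 classes for STIFF against SOFT. In HR-negative cells it was 1.6-fold higher in STIFF than in SOFT (51.0 against 31.8 CPM, interval 1.38 to 1.87). In immune cells it was 2.92-fold lower in STIFF than in SOFT (29.3 against 85.5 CPM, interval 2.42 to 3.53). MATR was the lowest condition in both classes: against SOFT it was 1.85-fold lower in HR-negative cells (interval 1.51 to 2.27) and 4.34-fold lower in immune cells (3.24 to 5.93). COL1 was 1.74-fold above MATR in HR-negative cells (1.36 to 2.21) and 1.67-fold above it in immune cells (1.16 to 2.42). COL1 was 1.71-fold below STIFF in HR-negative cells. All-gene call rates in immune cells were 19.5% for STIFF over SOFT, 8.21% for COL1 over MATR and 11.1% for MATR over SOFT. In HR-negative cells they were 6.06% for STIFF over SOFT, 5.32% for COL1 over MATR, 4.57% for COL1 over STIFF and 7.84% for MATR over SOFT. Because few cells carry most of the UMIs, the values were also taken without the 5% of cells richest in S100a8, an alternative chosen after seeing the data. HR-negative levels were then 11.1 CPM in COL1 and 25.4 in STIFF, and 7.58 in MATR and 14.4 in SOFT, and immune levels 23.8, 17.6, 13.5 and 57.9 CPM. The directions named above did not change, but COL1 over MATR in HR-negative cells came to 1.46-fold. With clusters drawn at a resolution of 1.0, STIFF over SOFT in HR-negative cells turned to -0.11 on the log2 scale, but the class then also took in a cluster of 983 cells that carried HR-positive markers too and had 13.9 CPM of S100a8, so its make-up changed. With tags ignored, the immune cells of the COL1 and STIFF pool were lower than those of the other pool by a log2 ratio of -1.0, whereas COL1 over MATR was 0.74.

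In HR-negative cells of MATR, S100a6, S100a10 and S100a14 were low together with S100a8. S100a6 had 1025 CPM in MATR against 1936 CPM in SOFT (1.89-fold lower), S100a10 had 343 against 642 CPM (1.87-fold lower) and S100a14, at levels not read as expression, had 26.8 against 46.8 CPM (1.75-fold lower). S100a10 was also 1.64-fold higher in COL1 than in MATR (560 against 343 CPM, interval 1.55 to 1.73). In STIFF the HR-negative level was 1865 CPM for S100a6, 549 CPM for S100a10 and 32.6 CPM for S100a14. The summed basal marker level of the HR-negative class was 539 CPM in COL1 and 1649 in STIFF, and 192 in MATR and 488 in SOFT. The part of the basal markers in these values was not tested. At the resolution of 1.0, S100a6 and S100a14 turned to 0.38 and 0.50 on the log2 scale (MATR over SOFT) and S100a10 came to -0.29, in a class of different make-up: its 983-cell cluster had 5729 CPM of S100a6 and 259 CPM of S100a14, and its other cluster (856 cells) had 838 and 23 CPM. Leaving out only the HR-negative cells that the finer clustering put with basal markers, an alternative chosen after seeing the data, S100a6 was 1.23-fold, S100a14 1.45-fold and S100a10 1.55-fold lower in MATR than in SOFT, and S100a10 was 1.27-fold higher in COL1 than in MATR. Tags were missing on 75.3% and 68.7% of HR-negative barcodes in the 2 pools, and untagged HR-negative barcodes had 955 and 1154 CPM of S100a6 against 1718 and 1501 CPM in tagged ones. The part of this gap in the values above was not tested.

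In basal cells only S100a6 was called. It was 1.69-fold lower in COL1 than in STIFF (1599 against 2707 CPM) and 1.64-fold lower in MATR than in SOFT (2158 against 3537 CPM), where 6.65% and 7.35% of all genes were called. No member was called in basal cells in COL1 over MATR or STIFF over SOFT, where 4.23% and 9.45% of all genes were. Under another tag rule, which divides each tag by its own background and takes the larger, both calls ended, at -0.21 and -0.30 on the log2 scale. Untagged basal barcodes had 1195 and 1331 CPM of S100a6, against 2244 and 2581 CPM in tagged ones.

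Immune cells gave the most calls of the 5 classes, and their all-gene rates were also the highest, at 8.21% for COL1 over MATR, 19.5% for STIFF over SOFT, 12.4% for COL1 over STIFF and 11.1% for MATR over SOFT. For 4 genes luminal transcripts in the same cells are given beside the calls. S100a16 was 3.14-fold higher in STIFF than in SOFT (138 against 43.9 CPM), S100a14 was 2.17-fold higher (103 against 47.5 CPM), S100a6 was 2.01-fold higher (3443 against 1712 CPM) and S100a11 was 1.57-fold higher (1187 against 756 CPM). S100a14 was 2.72-fold lower in COL1 than in MATR (40.7 against 110 CPM). In COL1 over STIFF all 4 were lower in COL1, by 1.53-fold (S100a11) to 2.53-fold (S100a14), and 12.4% of all genes were called. With TMM scaling, S100a11 in STIFF over SOFT and both S100a6 and S100a11 in COL1 over STIFF fell under 1.5-fold. S100a4 then passed 1.5-fold as lower in STIFF than in SOFT. In MATR over SOFT, S100a14 was 2.33-fold and S100a16 2.15-fold higher in MATR. The immune S100a14 levels of 40.7 CPM (COL1) and 47.5 CPM (SOFT) lie within or under the 41.8 to 60.3 CPM of fibroblasts. Like the HR-negative levels, they are not read as expression. The luminal markers Krt8, Krt18, Krt19 and Epcam, all 4 above 0, summed to 2552 CPM in immune cells of COL1 and 5795 in STIFF, and 3375 in MATR and 1716 in SOFT. An alternative chosen after seeing the data took the 50% of immune cells of each condition with the lowest share of these markers, where they summed to 166, 201, 142 and 124 CPM. In these cells S100a14 had 6.90, 4.22, 5.22 and 4.67 CPM and S100a16 had 8.87, 8.45, 7.83 and 7.65 CPM. Both rested on under 100 UMIs over STIFF and SOFT together, so their ratios were not measured there. For S100a6 and S100a11 no ratio between STIFF and SOFT reached 1.5-fold in these cells. S100a4 had 708, 1193, 520 and 1105 CPM there and S100a8 had 52.2, 40.1, 26.1 and 99.0 CPM, so both were again lower in MATR than in SOFT, but the highest S100a4 level was in STIFF here and in SOFT over all immune cells.

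**Figure D5:**
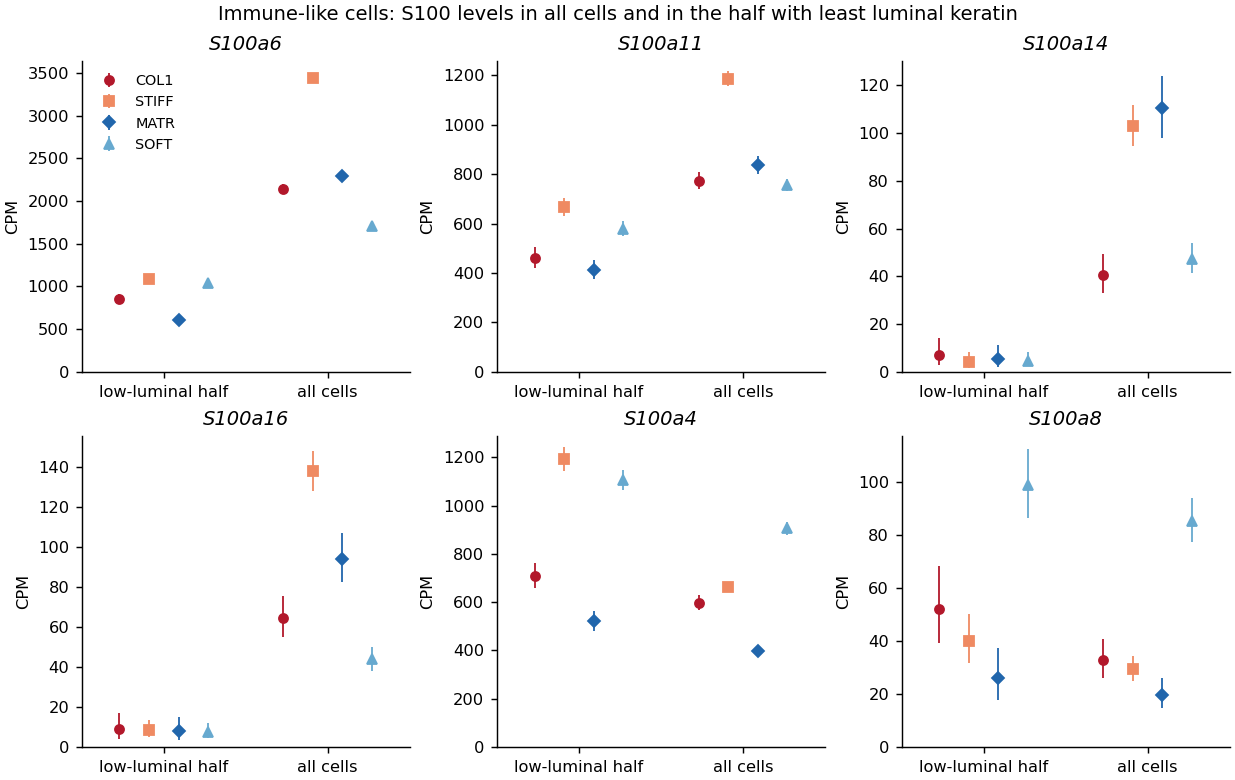
Levels in CPM of 6 S100 genes in the immune cells with the lowest share of luminal marker UMIs (left group in each panel) and in all immune cells (right group), with COL1, STIFF, MATR and SOFT from left to right and exact Poisson 95% intervals. S100a14 and S100a16 are at most 8.87 CPM in the low-luminal cells, whereas S100a4 (520 against 1105 CPM) and S100a8 (26.1 against 99.0 CPM) are lower in MATR than in SOFT there too.

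Partners and receptors of S100 proteins were read from a list of 16 genes. Over all tagged cells, 3 of 14 measured genes were higher and 0 lower in COL1 over MATR (11% of all genes called), 1 higher and 1 lower of 16 in STIFF over SOFT (9.57%), 0 higher and 1 lower of 15 for COL1 over STIFF (6.72%), and 0 higher and 1 lower of 14 in MATR over SOFT (9.17%). Within classes for COL1 over MATR, 1 of 13 measured genes was higher in COL1 in HR-positive cells (6.86% of all genes called), 2 of 11 in HR-negative cells (5.32%) and 1 of 10 in immune cells (8.21%), and 0 of 10 were called in basal cells (4.23%) and 0 of 10 in fibroblasts (7.15%). In immune cells, STIFF over SOFT had 2 higher and 2 lower of 13, where 19.5% of all genes were called. Anxa1, an S100a11 partner, was 1.57-fold higher in COL1 than in MATR (735 against 468 CPM) and 1.54-fold higher in STIFF than in SOFT (1274 against 830 CPM) in HR-negative cells, and 2.12-fold higher in STIFF than in SOFT (651 against 308 CPM) in immune cells. Il1a, whose product leaves cells with the help of S100a13, was highest in immune cells of SOFT: it had 207 CPM in COL1 and 175 in STIFF, and 76.5 in MATR and 271 in SOFT, a 3.55-fold lower level in MATR than in SOFT. Tlr4, a receptor for S100a8, was measured low, at 14.9 CPM in STIFF against 23.5 CPM in SOFT in immune cells. Bsg, the basigin receptor of S100a9, was 1.79-fold lower in STIFF than in SOFT in basal cells (1405 against 2512 CPM) and 1.62-fold lower in HR-negative cells (2045 against 3323 CPM). Ager, the RAGE receptor, had too few UMIs to be measured in any class.

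Other members of the family were barely read. S100a3 had 27, 117, 64 and 63 UMIs over all tagged cells of COL1, STIFF, MATR and SOFT, S100b had 52, 64, 36 and 18, and S100g had 33, 90, 2 and 58. S100a5, S100a7a, S100z and S100a2 had at most 27 UMIs per condition. Of the fused-type genes, Tchh had 61, 124, 93 and 91 UMIs, Rptn 2 to 5, and Flg, Flg2, Hrnr, Tchhl1 and Crnn none. Of 12 other EF-hand genes, none was called in a class in COL1 over MATR, where 6.27% of all gene and class pairs were. In STIFF over SOFT Cetn2 was called in basal cells (45.3 against 27.0 CPM) and Calm2 (587 against 374 CPM) and Rcn1 (19.2 against 10.5 CPM) in immune cells, where 9.45% and 19.5% of all genes were called. In basal cells Calml3 was lower in COL1 than in STIFF (16.9 against 26.3 CPM) and Cetn2 was higher in MATR than in SOFT (42 against 27.0 CPM), where 6.65% and 7.35% of all genes were called.

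The genes whose levels ran most like each member over the 20 class and condition profiles were found by Pearson correlation of log2(CPM + 10), as a description only. S100a4 was most like the chemokine genes Ccl7 (r = 0.98) and Ccl2 (0.98), and BC028528 (0.98). S100a8 was most like Cd14 (0.91), the lipopolysaccharide co-receptor, which had 873, 890, 704 and 1145 CPM in immune and 562, 563, 497 and 562 CPM in HR-negative cells. S100a6 ran with Plac8 (0.98), Dnajc3 (0.97) and Trappc4 (0.96), S100a14 with Porcn (0.96), the cornified envelope gene Sprr1a (0.96) and Ggt1 (0.96), and S100a10 with Trim29 (0.95), Gtf2f2 (0.94) and Zfp703 (0.93). S100a11 ran with Ywhaq (0.96), Psmd4 (0.96) and Psma2 (0.96), and S100a16 with Cavin3 (0.97), Npdc1 (0.96) and Cxxc5 (0.96). For S100a1 these were Slc25a23 (0.98), Arrdc1 (0.96) and Clcn3 (0.96), and for S100a13 Mrpl33 (0.93), Rer1 (0.92) and Slc50a1 (0.92). For S100a8 the next were Galnt7 (0.87) and N4bp1 (0.85). Among the members themselves S100a6 and S100a11 had r = 0.85 and S100a11 and S100a14 had r = 0.84, whereas S100a8 and S100a11 had r = -0.81.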

How the data were processed

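Per the file headers, the deposited values are unnormalized UMI counts written by Cell Ranger 5.0.0. Besides this tool, the submitters' processing notes list Seurat 4.2.0 and mm10. How barcodes were chosen is not given in the sources used here. The protocol names a V2 chip and a V3 library kit. The 4 deposited entries are 2 per pool with equal gene counts, so each pool was read once. A barcode was used if it had 1000 or more UMIs, 500 or more genes and no more than 15% of UMIs from mitochondrial genes (90.1% and 90.6%, median 10087.5 and 12626 UMIs). Hashtags were called with HTODemux (Seurat 5.3.0, R 4.3.3, positive quantile 0.99), and 305 and 277 barcodes with both tags were left out. Scrublet marked 0 of the kept barcodes in each pool, although the barcodes with both tags were among them. Its call therefore could not find doublets carrying the same tag, which were not removed and may remain.

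Tagged cells were clustered with scanpy 1.11.5 (Python 3.11.15, igraph 0.11.9, 2000 variable genes without S100 genes, 30 components, 15 neighbours, Leiden resolution 0.5). Clusters were named by the best marker list, which needed 3 or more genes that reached 20 CPM and were 2-fold over the median of other clusters, and stayed unnamed where a further list reached 0.5 of its mean log2 ratio. Counts were summed per class and condition over classes of at least 50 cells. Ratios have exact conditional binomial intervals, levels exact Poisson ones and shares Clopper-Pearson ones (scipy 1.17.1), all at 95% and for counting error only, since cells of 1 culture vary more. The procedure was tested on simulated data. The simulated counts were independent Poisson draws, so that test does not cover variation between cells or cultures. edgeR 4.0.16 gave trimmed mean of M-values (TMM) scaling as an alternative.

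The members and lists were chosen with earlier results of these data known. All members are named, and for each the 3 genes of highest r among those of at least 20 CPM on average, without mitochondrial, ribosomal and unnamed gene models; of the other lists the genes with the largest and smallest ratios are examples, and further list genes were named after their values were seen. S100a2 was added after its file entry was seen. S100a7l2 was not analysed here.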

Additional observations from a re-analysis of the deposited data

Results flagged for a closer look

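S100a8 took opposite directions past 1.5-fold in 2 classes of the same comparison. Its log2 ratio of STIFF over SOFT was 0.68 in HR-negative cells and -1.54 in immune cells. At Leiden resolution 1.0, where the HR-negative class had another make-up, its value was -0.11 and the directions were no longer opposite. The difference between the classes was not tested, since each condition was 1 culture.

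S100a14 did so in 3 comparisons. Its log2 ratio was 1.12 in immune cells and -0.86 in HR-positive cells for STIFF over SOFT. For COL1 over STIFF it was 0.82 in HR-positive cells and -1.34 in immune cells. For MATR over SOFT it was 1.22 in immune cells and -0.81 in HR-negative cells, where the S100a14 level is not read as expression and the value was 0.50 at resolution 1.0. The immune S100a14 levels of COL1 and SOFT are likewise not read as expression. None of these differences was tested. In these 3 comparisons the luminal markers in immune cells went in the same direction as immune S100a14, although the conditions did not rank alike in both. In the immune cells with fewest luminal transcripts S100a14 had 4.22 to 6.90 CPM. Those cells were chosen by luminal markers, so a low level of an epithelial gene there decides nothing about the cause, which was not tested.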

How the results depend on the processing

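Of 35 ratios past 1.5-fold (5 over all tagged cells and 30 in classes), 24 kept their sign under all alternatives run and 12 kept the call under the alternatives to tag rule, cell filter, clustering, scaling, scrublet scores and class membership. No such tally over all genes is given here, so these numbers have no background to be read against. The 12 are S100a4 and S100a8 over all cells in COL1 over MATR and MATR over SOFT, S100a14 over all cells and in HR-positive cells in STIFF over SOFT, S100a14 in HR-positive cells in COL1 over STIFF, S100a8 in HR-negative cells in COL1 over MATR and MATR over SOFT, S100a8 in immune cells in STIFF over SOFT and MATR over SOFT, and S100a4 in immune cells in MATR over SOFT. Of these 12, calls were lost for S100a14 in HR-positive cells within clusters 4 and 5 (STIFF over SOFT) and 3 and 5 (COL1 over STIFF), and for S100a8 in HR-negative cells (COL1 over MATR) without the cells richest in it. Called pairs numbered 5 in COL1 over MATR, and 10 under the relative tag rule (each tag divided by its background, the larger at least 2 times the smaller) and 3 under the margin rule (a centred log-ratio lead of at least 1). In COL1 over STIFF they numbered 8 of 42 (7.54%), against 4 of 41 under the margin rule (5.86%) and 5 of 40 with low-luminal immune cells (6.92%). In STIFF over SOFT they numbered 8 of 42 (10.3%), against 4 of 40 with low-luminal immune cells (8.19%). The low-luminal setting was chosen after seeing the data. In MATR over SOFT they numbered 9 of 40 (8.03%). Alternatives ran from 6 of 40 at Leiden resolution 1.0 (7.05%) to 11, for instance 11 of 42 under the relative tag rule (7.08%). The cell filter, the scaling and the scrublet scores moved no count beyond 1.5 times.

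Some log2 ratios changed sign. With tags ignored (COL1 and STIFF pool over the other, which also brings in the second culture of each pool), COL1 over MATR turned to -0.026 for S100a4 in HR-positive cells, -0.057 for S100a10 in HR-negative cells, -1.0 for S100a8 and 0.24 for S100a14 in immune cells. In low-luminal immune cells S100a14 turned to 0.40 in COL1 over MATR, -0.15 in STIFF over SOFT and 0.71 in COL1 over STIFF, and S100a16 to 0.071 in COL1 over STIFF. These low-luminal values rested on under 100 UMIs over both conditions, so by the rule used above they were not measured. The relative tag rule gave -0.29 for S100a4 in HR-negative cells in STIFF over SOFT. At Leiden resolution 1.0, where the HR-negative class also took in a cluster of 983 cells with markers of both luminal kinds, S100a8 in HR-negative cells gave -0.11 in STIFF over SOFT, and S100a6 and S100a14 gave 0.38 and 0.50 in MATR over SOFT. The causes were not tested. The TMM shift of immune cells was 0.23 in STIFF over SOFT and -0.115 in COL1 over STIFF, and the scaling subtracts it from each log2 ratio. No paired analysis was possible because each condition was 1 culture.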
